A study of Mus musculus with 6 samples.

Results

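The genes described here are 10 genes of inflammatory, M1-like macrophage activation, listed apart from interferon-stimulated genes: Nos2, Ptgs2, Tnf, Il1b, Il6, Il1rn, Nfkbiz, Lcn2, Cd80 and Cd86. Whether they also respond to interferon was not tested. They were taken by name from the 36137 genes measured, and 10 of 10 had enough counts to be among the 18506 genes tested. They were followed in bone marrow–derived macrophages (BMDMs), which are macrophages grown from marrow in culture, after 8 h of hypoxia with serum starvation (HSS), a culture model of ischemia. The question was whether these genes differ when macrophages lack DRP1, the GTPase that divides mitochondria.

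Drp1 KO BMDMs came from LysM-Cre+/- Drp1 fl/fl mice and WT BMDMs from LysM-Cre+/- Drp1+/+ mice, so both groups carried a Cre driven by the lysozyme M promoter, which is active in myeloid cells. The mice were young adults of both sexes, and the methods describe marrow of 2 mice per genotype that was pooled. The cells were cultured for 7 days, moved to serum-free starvation medium at 2.1% oxygen, and lysed after 8 h. There were 3 libraries per genotype, all after HSS, so the response to HSS itself was not measured. The deposited tables held 24269850 to 28650715 estimated counts per WT library and 23389488 to 32231206 per Drp1 KO library.

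The deletion was looked at first. Dnm1l, which encodes DRP1, was at 72.7, 69.9 and 75.1 CPM (counts per 1000000 counts of the library) in WT libraries 1 to 3 and at 58.7, 60.7 and 66.3 CPM in Drp1 KO libraries 1 to 3. The 2 ranges did not overlap, but the change was small (log2 fold change -0.23, edgeR adjusted p = 0.248), and a count summed over whole transcripts does not show whether the floxed part was lost. The paper reports deletion of DRP1 at the protein level, by immunoblot, in BMDMs of these knockout mice, with Drp1 fl/fl mice as WT. Of 10 macrophage identity markers, 10 were tested, Lyz2 (lysozyme 2) had the highest CPM, which is not corrected for length, at 8173 to 9961, and their sum ranged from 14979 to 16490 CPM in WT and from 13215 to 15595 CPM in Drp1 KO libraries. Fcgr1, the high-affinity IgG receptor, rose (log2 fold change 1.34, edgeR adjusted p = 0.000322), and Csf1r, Mertk and Mrc1, receptors for CSF1, for apoptotic cells and for mannose, fell by 0.52, 0.52 and 0.42 on the log2 scale (edgeR adjusted p = 0.0340, 0.0236 and 0.0407), calls that held in 9, 11 and 9 of 15 alternative fits. Markers of other cells summed in any library to at most 64 CPM for dendritic cells, 56 CPM for B cells, 9.63 CPM for T and NK cells, 3.06 CPM for fibroblasts and 0.454 CPM for mast cells and basophils.

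Inflammatory activation of macrophages runs through Toll-like and cytokine receptors to the transcription factor NF-κB. Tnf, Il1b and Il6 encode secreted cytokines that act on other cells, and Il1rn encodes a protein that occupies the interleukin-1 receptor without activating it. Nos2 and Ptgs2 encode the enzymes that make nitric oxide and start prostaglandin synthesis, Nfkbiz encodes IκBζ, a nuclear partner of NF-κB, Lcn2 encodes lipocalin 2, which binds iron-carrying bacterial siderophores, and Cd80 and Cd86 encode surface ligands that T cells read through CD28 and CTLA-4.

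All 10 genes had a fitted log2 fold change above 0 in Drp1 KO relative to WT BMDMs, as they did under each scaling tried, although Nos2 turned below 0 without Drp1 KO library 1. They had a median of 0.46 (0.42 without Il6, which was at the limit of detection), beside a median of 0.00 and 50.6% above 0 over all genes tested. Il1rn rose 1.72-fold and was the 1 gene of the 10 that passed an edgeR adjusted p under 0.05. Across all genes tested 3.36% passed in either direction and 2.29% were higher in Drp1 KO. The study's own criteria ask that one genotype exceed the other by more than 25% at a p under 0.05, read here as a p before adjustment. By these criteria 4 of the 10 were higher: Il1rn, Nfkbiz, Lcn2 and Cd80. Across all genes 12.7% met these criteria in either direction and 7.19% upward. In the same 4 genes each Drp1 KO library lay above each WT library, which was the case for 11.7% of all genes, with 21.9% not overlapping in either direction. Nos2, Ptgs2, Tnf, Il1b, Il6 and Cd86 had overlapping groups.

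**Figure D1:**
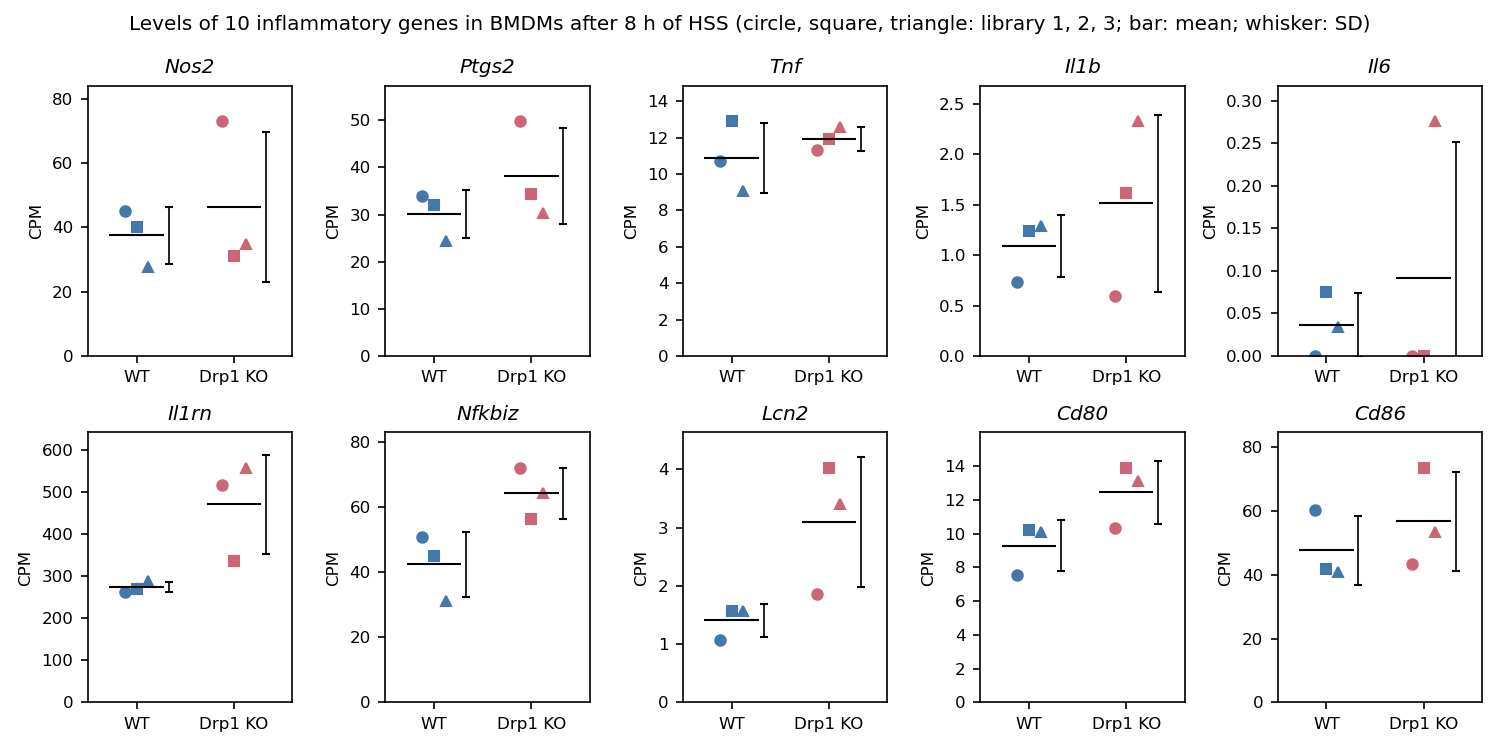
Level of each of the 10 genes in CPM (counts per 1000000, vertical axis from 0) in WT (blue) and Drp1 KO (red) BMDMs after 8 h of HSS, with circle, square and triangle for libraries 1, 2 and 3, a bar for the mean and a whisker for the SD (n = 3). The groups are separate for Il1rn, Nfkbiz, Lcn2 and Cd80 and overlap for the other 6 genes.

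The libraries of the 2 genotypes carry the same numbers in their labels. Deviations from the group means gave a positive correlation in each same-numbered pair (0.515, 0.206 and 0.307 over 12248 genes). However, a value larger than those of pairs 2 and 3, 0.328, arose between number 2 of WT and number 3 of Drp1 KO. Only pair 1 was thus set apart by these values, and the pairing of the others rests on the labels. The block was adopted after these values were seen. With the number as a replicate block, 4 of the 10 genes had an adjusted p under 0.05, again Il1rn, Nfkbiz, Lcn2 and Cd80 (edgeR adjusted p = 0.00259, 0.00765, 0.00602 and 0.0265). The blocked fit called 12% of all genes in either direction and 6.73% upward. The p-values measure the spread between these libraries. The labels call the libraries biological replicates, and whether each came from its own pool of marrow is not stated.

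**Figure D2:**
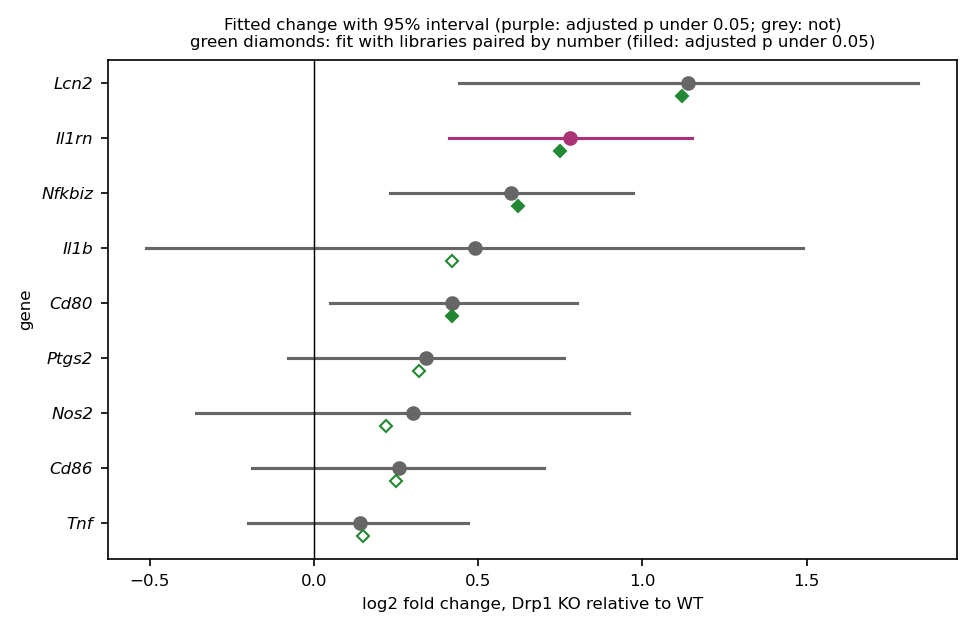
Fitted log2 fold change (horizontal axis, Drp1 KO relative to WT) of 9 genes with the 95% interval of the fit, purple where the adjusted p was under 0.05 and grey where it was not; Il6 is left out for its low counts. Green diamonds give the fit with libraries paired by number, filled where its adjusted p was under 0.05, and Il1rn, Nfkbiz, Lcn2 and Cd80 have filled diamonds.

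The 10 genes spanned a wide range of abundance. In TPM (transcripts per 1000000), which corrects for transcript length, Il1rn came first with a mean level of 509 TPM in WT and 778 TPM in Drp1 KO BMDMs. It made up 81.5% to 89.1% of the summed TPM of the 10 genes in the 6 libraries. The mean WT levels of the others were 36.0 TPM for Cd86, 16.6 for Nfkbiz, 12.4 for Nos2, 12 for Ptgs2, 9.53 for Tnf, 5.66 for Cd80, 2.66 for Lcn2, 1.62 for Il1b and 0.0833 for Il6. In WT libraries the ranges of neighbours in this order overlapped between Nfkbiz and Nos2, Nos2 and Ptgs2, Ptgs2 and Tnf, and Lcn2 and Il1b. The order of the means was the same in Drp1 KO BMDMs, where the ranges of Nfkbiz and Nos2 and of Nos2 and Ptgs2 overlapped.

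The stretch before each gene's start was read from the GRCm39 genome, since NF-κB is the regulator that these genes are known to share. In the 250 bases before the start of the main transcript, 4 of the 10 genes held a match to the NF-κB consensus on either strand, as did 4.23% of the promoters of 21757 protein-coding genes. The matches are shown here with 10 bases on each side, in the direction of the gene, with the matching letters in capitals. They begin 46 bases before the start in Nos2 (chr11:78811557-78811586, plus strand), 41 in Ptgs2 (chr1:149975437-149975466, plus strand), 44 in Il6 (chr5:30218058-30218087, plus strand) and 202 in Lcn2 (chr2:32277992-32278021, minus strand).
Nos2: cacccaactgGGGACTCTCCctttgggaac
Ptgs2: ggagaggtgaGGGGATTCCCttagttagga
Il6: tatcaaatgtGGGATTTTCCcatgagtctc
Lcn2: caaagccctgGGAATGTCCCtctggtcccc
The Nos2 and Il6 stretches overlap no annotated exon, and those of Ptgs2 and Lcn2 lie within exons of other annotated transcripts. Of these 4 genes, Lcn2 was among those whose libraries did not overlap between genotypes, and Il1rn, Nfkbiz and Cd80 held no match in this window. The interferon-stimulated response element, present in 3.32% of all promoters, was in none of the 10 windows. The letters TTGCNNAA of C/EBP, in 9.34% of promoters, were in those of Nos2, Lcn2, Il6 and Cd80, and the letters TGANTCA of AP-1, in 6.18%, in that of Il6. The letters ACGTG or GCGTG of a hypoxia response element, in 41.3% of promoters, were in those of Ptgs2 and Nos2, and the TATA box letters TATAAA, in 11.9%, were in those of Tnf and Il1b. A match is a description of letters in the window and no measurement of binding.

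Among the regulators, Nfkbiz (chr16:55631738-55659262) was measured at 50.8, 45.0 and 31.2 CPM in WT libraries and at 72.0, 56.2 and 64.2 CPM in Drp1 KO libraries. The lowest Drp1 KO library was above the highest WT library. The log2 fold change was 0.60 ± 0.168 (SE, n = 3 per group), which did not pass in the unpaired fit (edgeR adjusted p = 0.0924) and passed in the blocked fit named above. Nfkbiz was higher in 3 of 3 same-numbered pairs, by 0.50, 0.32 and 1.04 on the log2 scale. Its transcript Nfkbiz-204 held 98.5% of the gene's estimated counts. With DESeq2 and with every gene of at least 1 count kept in edgeR, Nfkbiz also passed (adjusted p = 0.0236 and 0.0118), in fits that called 8.8% and 4.43% of all genes.

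The cytokine genes were at low levels. Tnf (chr17:35418357-35420983) was at 10.7, 12.9 and 9.06 CPM in WT and at 11.3, 11.9 and 12.6 CPM in Drp1 KO libraries. WT libraries spanned a wider range than Drp1 KO libraries and enclosed them on both sides. The fold change was 1.10 with a 95% interval of 0.871 to 1.39 (edgeR adjusted p = 0.749), which spans 1.

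Il1b (chr2:129206490-129213059) had 17, 33 and 38 counts in WT and 13, 53 and 76 counts in Drp1 KO libraries, which is 0.733, 1.24 and 1.29 CPM and 0.590, 1.62 and 2.33 CPM. The lowest and the highest value were both in Drp1 KO libraries. Its fold change of 1.41 had an interval from 0.703 to 2.81 (edgeR adjusted p = 0.676). The log2 fold change of 0.49 ran from 0.05 without Drp1 KO library 3 to 0.84 without Drp1 KO library 1.

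Il6 (chr5:30218112-30224979) had 0, 2 and 1 counts in WT and 0, 0 and 9 counts in Drp1 KO libraries. The floor was set at 3 counts, which corresponds to between 0.0917 and 0.136 CPM depending on the library. Il6 exceeded it in 1 of 6 libraries, so a difference was not detectable at this depth and no fold change is given.

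Il1rn (chr2:24226865-24241506), the interleukin-1 receptor antagonist, had the smallest p of the 10. It was at 264, 271 and 288 CPM in WT and at 519, 337 and 559 CPM in Drp1 KO libraries. WT libraries lay close together, and Drp1 KO library 2 lay nearer to them than libraries 1 and 3 did. The log2 fold change was 0.78 ± 0.166 (SE, n = 3 per group; 1.72-fold, 95% interval 1.33 to 2.22; edgeR adjusted p = 0.0322). Il1rn was higher in 3 of 3 same-numbered pairs, by 0.98, 0.31 and 0.96 on the log2 scale. The call was lost in 5 of the 6 fits that left out a library. With WT library 1, 2 or 3 left out the adjusted p was 0.0657, 0.172 or 0.114, and with Drp1 KO library 1 or 3 left out it was 0.0591 or 0.0937. In those 5 fits the log2 fold change was 0.64 to 0.81. It was also above the threshold with length-scaled counts (log2 fold change 0.70, edgeR adjusted p = 0.0696), a fit that called 2.44% of all genes.

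The Il1rn reads were spread over transcripts with separate starts. The gene is known to make a secreted form of the antagonist and intracellular forms that lack a signal peptide. Il1rn-204 starts 8435 bases upstream of Il1rn-202 and encodes 159 residues, and Il1rn-202 and Il1rn-201 start 22 bases apart and encode 162 and 178 residues. The estimated counts of Il1rn-204 were 50.1, 51.3 and 52.3 CPM in WT and 124, 90.2 and 140 CPM in Drp1 KO libraries, a ratio of means of 2.30. For Il1rn-202 the means were 152 ± 7.67 and 246 ± 68.9 CPM (SD, n = 3), and for Il1rn-201 69.8 ± 3.92 and 106 ± 30.2 CPM, ratios of 1.62 and 1.52. All 3 transcripts had Drp1 KO libraries above WT libraries, but for Il1rn-201 the groups nearly touched, at 73.9 CPM in WT library 3 and 74.2 CPM in Drp1 KO library 2.

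The share of Il1rn counts on the upstream start also differed. Il1rn-204 held 19.0%, 18.9% and 18.1% of the gene's counts in WT and 23.8%, 26.8% and 25.1% in Drp1 KO libraries, and the ranges did not overlap. The mean share was 18.7% ± 0.466 and 25.2% ± 1.48 (SD, n = 3), a difference of 6.55 percentage points. Expressed in TPM, the share was 6.77% ± 0.167 in WT and 9.65% ± 0.557 in Drp1 KO BMDMs, lower since TPM divides by length and Il1rn-204 is the longest of the 3. Kallisto assigns reads that several transcripts share by a model, so these shares are estimates, and no test was run on them.

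**Figure D3:**
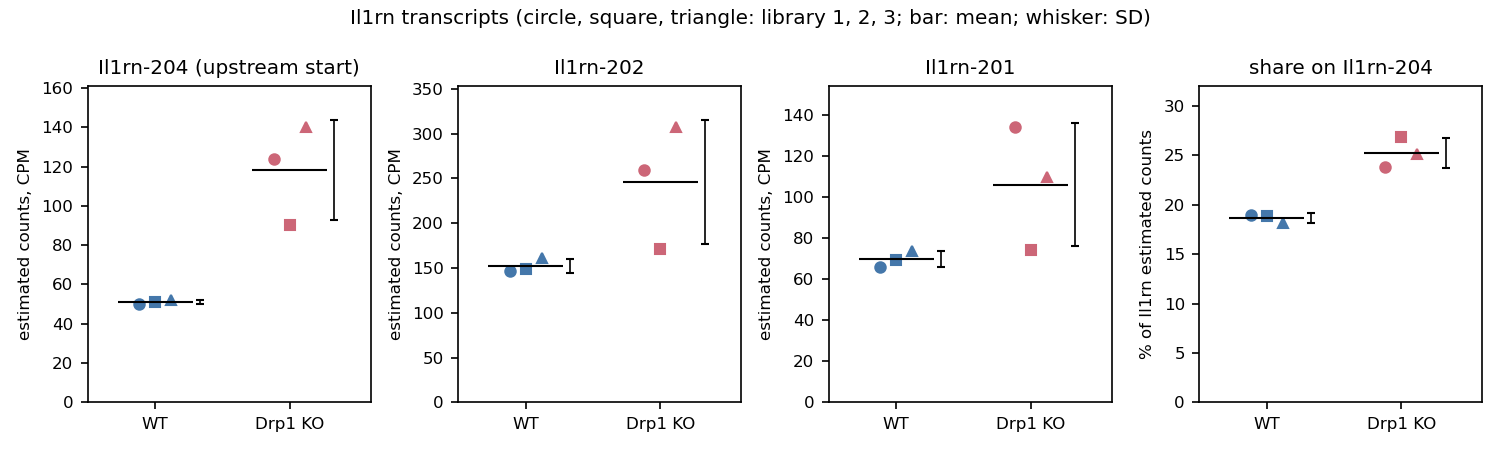
Estimated counts (CPM, vertical axes from 0) of the Il1rn transcripts Il1rn-204, Il1rn-202 and Il1rn-201, and, in the right panel, the percentage of Il1rn counts on Il1rn-204, in WT (blue) and Drp1 KO (red) libraries, with the mean as a bar and the SD as a whisker (n = 3). The share on the upstream start is 18.1% to 19.0% in WT and 23.8% to 26.8% in Drp1 KO BMDMs.

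The 250 bases before each of the 2 main start regions of Il1rn are shown because the share of counts on them differed between genotypes. They are chr2:24226615-24226864 for Il1rn-204 and chr2:24235050-24235299 for Il1rn-202, both on the plus strand of GRCm39, and neither overlaps an annotated exon. Capitals mark a match to the AP-1 letters named above, which begins 134 bases before the Il1rn-204 start.
Il1rn-204: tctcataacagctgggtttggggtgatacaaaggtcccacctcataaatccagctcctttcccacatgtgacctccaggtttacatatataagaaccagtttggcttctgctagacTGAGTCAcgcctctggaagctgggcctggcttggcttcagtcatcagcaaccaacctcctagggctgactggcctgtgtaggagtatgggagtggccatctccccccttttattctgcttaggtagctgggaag
Il1rn-202: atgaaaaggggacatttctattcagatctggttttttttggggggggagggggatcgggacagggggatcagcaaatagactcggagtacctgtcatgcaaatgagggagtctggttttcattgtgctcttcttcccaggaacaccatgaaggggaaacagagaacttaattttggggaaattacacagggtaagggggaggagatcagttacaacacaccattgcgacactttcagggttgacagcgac
A match to the hypoxia response letters begins 129 bases before the Il1rn-204 start and shares its first bases with the AP-1 match. The Il1rn-202 window held none of the 6 motifs searched, and neither window held the NF-κB consensus or the interferon-stimulated response element.

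Antagonist and agonist of the interleukin-1 receptor were compared in the same libraries. There were 533, 217 and 327 Il1rn TPM per Il1b TPM in WT and 658, 285 and 334 in Drp1 KO libraries. On the log2 scale the ratio was 8.39 ± 0.648 (SD, n = 3) in WT and 8.63 ± 0.641 in Drp1 KO BMDMs. The difference of 0.24 was smaller than the spread between libraries (exact two-sided permutation p = 0.6, smallest possible 0.1). The ratio was higher in 3 of 3 same-numbered pairs, which gave an exact sign-flip permutation p of 0.25, the smallest that 3 pairs allow. The difference turned to -0.07 when WT library 2 was left out and to -0.12 when Drp1 KO library 1 was. Il1rn exceeded Il1b in all 6 libraries.

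Nos2 (chr11:78811613-78851080), the inducible nitric oxide synthase, was at 45.1, 40.0 and 27.8 CPM in WT and at 73.1, 31.0 and 34.8 CPM in Drp1 KO libraries. Drp1 KO library 1 stood above the other 5, and Drp1 KO libraries 2 and 3 lay within the WT range. The log2 fold change was 0.30 ± 0.296 (SE, n = 3 per group; edgeR adjusted p = 0.709), with a 95% interval of 0.778- to 1.94-fold. Without Drp1 KO library 1 it was -0.20, on the other side of 0 (edgeR adjusted p = 0.651).

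Ptgs2 (chr1:149975194-149983978), which encodes cyclooxygenase 2, was at 33.9, 32.1 and 24.4 CPM in WT and at 49.8, 34.4 and 30.3 CPM in Drp1 KO libraries. Drp1 KO library 1 was again the highest, while the lowest Drp1 KO library lay below 2 of the WT libraries. Its log2 fold change was 0.34 ± 0.189 (SE, n = 3 per group; 95% interval 0.945- to 1.69-fold; edgeR adjusted p = 0.428). With each library left out it ran from 0.09 (without Drp1 KO library 1) to 0.48 (without Drp1 KO library 3). Ptgs2 was higher in 3 of 3 same-numbered pairs, by 0.55, 0.10 and 0.31 on the log2 scale, and the blocked fit did not pass (edgeR adjusted p = 0.0587).

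Lcn2 (chr2:32274645-32278264) had the largest fold change among the 9 genes above the floor. It was at 1.08, 1.57 and 1.57 CPM in WT and at 1.86, 4.03 and 3.40 CPM in Drp1 KO libraries, from 25 to 46 counts and from 41 to 132 counts. The groups did not overlap, and Drp1 KO library 1 lay nearest to WT. Lcn2 had a log2 fold change of 1.14 ± 0.315 (SE, n = 3 per group; 2.21-fold, 95% interval 1.36 to 3.59), which did not pass in the unpaired fit (edgeR adjusted p = 0.0870), passed with the block, and passed with DESeq2 (adjusted p = 0.0211). Lcn2 was higher in 3 of 3 same-numbered pairs, by 0.79, 1.36 and 1.12 on the log2 scale.

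Lipocalin 2 is also a neutrophil granule protein, so neutrophil markers were read beside it. Of 12 markers 9 were tested and 0 passed in the unpaired edgeR fit (5 at an unadjusted p under 0.05, 5 with the block, 2 with DESeq2 and 0 with limma-voom). Of all genes, 16.4% had an unadjusted p under 0.05, and 12%, 8.8% and 3.37% were called with the block, DESeq2 and limma-voom. Their median log2 fold change was 1.03, and their sum ranged from 137 to 142 CPM in WT and from 164 to 263 CPM in the Drp1 KO group. Without Mmp8, which took the most counts of them, the sums of the other 8 were 52.7 to 66.8 CPM and 65.5 to 95 CPM. S100a8, a calprotectin subunit, was at 1.90, 3.22 and 3.85 CPM in WT and at 2.91, 9.65 and 10.8 CPM in Drp1 KO libraries, and Ly6g was at 0 counts in all 6 libraries. Drp1 KO libraries 2 and 3 were the highest in both Lcn2 and S100a8, and Drp1 KO libraries 1 and 3 in both Il1rn and Mmp8. No other neutrophil marker tested had Drp1 KO libraries 1 and 3 as its highest. In S100a9, Ltf and Ngp, library 1 was the lowest of the Drp1 KO libraries, at 10.9, 2.22 and 4.09 CPM. In bulk RNA a change in the number of such cells and a change in RNA per cell cannot be told apart, and their part in the Lcn2 and Il1rn differences was not tested.

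Cd80 (chr16:38275923-38316697) was at 7.55, 10.2 and 10.1 CPM in WT and at 10.3, 13.9 and 13.1 CPM in Drp1 KO libraries. The groups met without overlapping, since the lowest Drp1 KO library was just above the highest WT library. Cd80 had a log2 fold change of 0.42 ± 0.167 (SE, n = 3 per group; 1.34-fold, 95% interval 1.04 to 1.74; edgeR adjusted p = 0.238). The same-numbered differences of 0.44, 0.45 and 0.38 on the log2 scale were close to each other, and Cd80 passed in the blocked fit. Its transcripts Cd80-202 and Cd80-201 held 82.8% ± 1.81 and 16.2% ± 1.43 of the counts in WT and 80.0% ± 2.65 and 14.5% ± 4.47 in Drp1 KO libraries (SD, n = 3), with overlapping ranges.

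Cd86 (chr16:36424044-36486443) was at 60.2, 41.7 and 40.9 CPM in WT and at 43.2, 73.5 and 53.4 CPM in Drp1 KO libraries. WT library 1 was above 2 of the Drp1 KO libraries. For Cd86 the log2 fold change was 0.26 ± 0.201 (SE, n = 3 per group; 95% interval 0.875- to 1.63-fold; edgeR adjusted p = 0.614), and same-numbered differences were -0.48, 0.82 and 0.39. With each library left out the change ran from 0.03 (without Drp1 KO library 2) to 0.46 (without WT library 1). The log2 ratio of Cd86 to Cd80 TPM was 2.67 ± 0.489 (SD, n = 3) in WT and 2.32 ± 0.225 in Drp1 KO BMDMs, a difference of -0.35 (exact two-sided permutation p = 0.4, smallest possible 0.1) that shrank to -0.07 without WT library 1. The ratio was widest in WT library 1, at 9.41 Cd86 TPM per Cd80 TPM, and 4.41 to 5.94 in the other libraries.

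**Figure D4:**
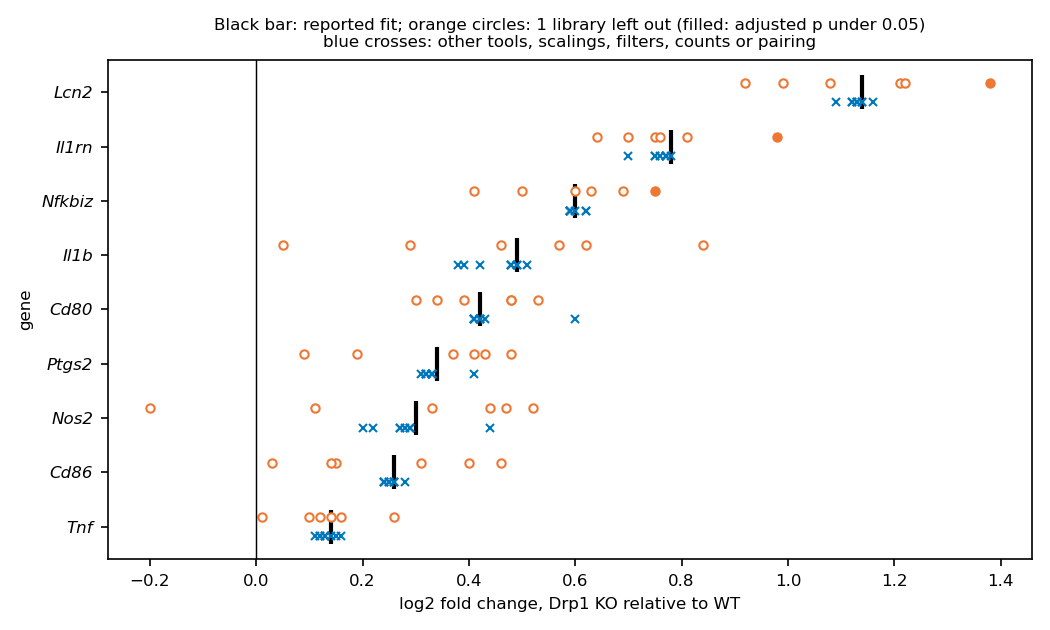
Log2 fold change (horizontal axis, Drp1 KO relative to WT) of 9 genes under each alternative: the black bar is the reported fit, orange circles leave out 1 library (filled where the adjusted p was under 0.05), and blue crosses use another tool, scaling, filter, count or the pairing. Nos2 is the gene whose circles reach below 0, to -0.20, and Lcn2, Il1rn and Nfkbiz keep values of at least 0.41.

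The genes whose pattern over the 6 libraries was most like each of 7 members (those with a mean of at least 5 CPM) were sought among 9407 genes, by the root mean square difference of log2 CPM after centring. Il1rn was closest to Plscr3, Bst1 and Carmil1 (0.0981, 0.128 and 0.130). Bst1 is also known as CD157, and Plscr3 is a mitochondrial phospholipid scramblase. Their log2 fold changes of 0.73 and 0.79 follow from their having been chosen for likeness to Il1rn. Nfkbiz was closest to Slc25a22, a mitochondrial glutamate carrier, at 0.0565, and Cd80 to the zinc finger gene Zfp984 at 0.0202. Ptgs2 was closest to Setd6 at 0.0677, Tnf to Zw10 at 0.0630, Cd86 to Amd1 at 0.0773 and Nos2 to Cd200 at 0.150.

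Of 118 other genes of the members' pathways and of inflammatory activation that were tested, 9 (7.63%) passed an edgeR adjusted p under 0.05, 4 higher and 5 lower in Drp1 KO BMDMs, beside the 3.36% of all genes. The lists were chosen with earlier results of these data known, and this share was not tested against that of all genes. Of all genes, 16.4% had an unadjusted p under 0.05 in edgeR, and 12%, 8.8% and 3.37% were called with the block, DESeq2 and limma-voom. Of 15 alternative fits, Tbxas1 passed in 7, Adam17 and Pdcd1lg2 in 8, Inhba in 10, Ptgs1, Casp1, Mmp9 and Csf1 in 11 and Marco in 14. Of 13 nitric oxide partners tested, 0 passed in the edgeR fit (5 at an unadjusted p under 0.05, 3 with the block, 1 with DESeq2 and 0 with limma-voom), with a median log2 fold change of -0.14, and Slc7a1, an arginine transporter, had the highest mean CPM (log2 fold change 0.49, edgeR adjusted p = 0.289; 0.00613 with the block). Of 14 prostaglandin partners, 2 passed (4 with the block), each of them lower in Drp1 KO BMDMs: Ptgs1, the constitutive cyclooxygenase, from 5.58 to 10.0 CPM in WT down to 2.35 to 4.36 CPM in Drp1 KO BMDMs (log2 fold change -1.23, edgeR adjusted p = 0.0383), and Tbxas1, thromboxane synthase (-0.44, edgeR adjusted p = 0.0433). Ptgs2 and Ptgs1, which catalyse the same step, thus had fitted changes of opposite sign, of which that of Ptgs1 passed. Hpgds, the hematopoietic prostaglandin D synthase, had the highest mean CPM of these partners (0.34, edgeR adjusted p = 0.184).

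Of 14 interleukin-1 partners, 1 passed in the unpaired edgeR fit and was higher: Casp1, the protease that matures interleukin-1β, from 133 to 143 CPM in WT up to 180 to 239 CPM in Drp1 KO BMDMs (log2 fold change 0.67, edgeR adjusted p = 0.0145). The median of this list was 0.32, and with the block 5 of its genes passed as higher and 1 as lower (edgeR adjusted p under 0.05), beside 6.73% of all genes higher and 12% in either direction. Of 13 TNF partners, 1 passed in that fit and was lower: Adam17, the protease that sheds TNF from the cell surface, from 267 to 324 CPM in WT to 198 to 230 CPM in Drp1 KO BMDMs (log2 fold change -0.46, edgeR adjusted p = 0.0432). The receptor gene Tnfrsf1b had the highest mean CPM of this list, with 504 to 692 CPM (edgeR adjusted p = 0.999). With the block 2 TNF partners passed as higher and 1 as lower. Of 10 interleukin-6 partners, 0 passed in the edgeR fit (1 at an unadjusted p under 0.05, 1 with the block, 1 with DESeq2 and 0 with limma-voom), and Jak1 had the highest mean CPM. Of 9 costimulation partners tested, 1 passed in the unpaired edgeR fit and was higher: Pdcd1lg2, which encodes PD-L2, a ligand of the inhibitory receptor PD-1. It went from 0.129 to 0.562 CPM in WT to 1.09 to 3.01 CPM in Drp1 KO BMDMs (log2 fold change 2.34, edgeR adjusted p = 0.0395), and limma-voom called 0 genes of this list. Cd274, which encodes PD-L1, had the highest mean CPM of them, with 444 to 921 CPM, and did not pass (0.55, edgeR adjusted p = 0.204; 0.00490 with the block, in which 2 of these partners passed, both higher).

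Of 6 lipocalin and iron partners, 1 passed in the unpaired edgeR fit and was lower: Mmp9, from 3.68 to 7.83 CPM in WT down to 1.09 to 2.42 CPM in Drp1 KO BMDMs (log2 fold change -1.70, edgeR adjusted p = 0.0311). Lcn2 and Mmp9 thus lay on opposite sides of 0, and Lcn2 did not pass in this fit (edgeR adjusted p = 0.0870). Slc11a1, a metal ion transporter of the phagosome, had the highest mean CPM of this list (-0.04, edgeR adjusted p = 0.949). Of 14 regulators of the stability or expression of inflammatory mRNAs, 0 passed in the edgeR fit (0 at an unadjusted p under 0.05, and 0 with the block, DESeq2 or limma-voom), and Zfp36l2 had the highest mean CPM. Of 25 other inflammatory activation genes tested, 2 passed as higher and 1 as lower in the unpaired edgeR fit, which called 3.36% of all genes. With the block 6 passed as higher and 2 as lower, beside 6.73% of all genes higher and 12% in either direction. Csf1, the macrophage growth factor, and Inhba, an activin subunit, rose 1.49- and 2.37-fold (edgeR adjusted p = 0.0315 and 0.0348). Marco, a scavenger receptor, fell from 82.7 to 254 CPM in WT down to 21.9 to 41.4 CPM in Drp1 KO BMDMs (log2 fold change -2.39, edgeR adjusted p = 0.00799). Clec4e, the receptor Mincle, had the highest mean CPM of this list and did not pass (0.53, edgeR adjusted p = 0.222; 0.00328 with the block).

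Beside these, 14 of 14 interferon-stimulated genes had a fitted log2 fold change above 0, with a median of 2.21, and 13 passed an edgeR adjusted p under 0.05. Of the 10 inflammatory genes 1 passed, and their median was 0.46. Of all genes 3.36% passed in either direction and 2.29% upward. Ifit2 had the highest mean CPM of the 14, with 121 to 213 CPM in WT and 545 to 954 CPM in Drp1 KO libraries (log2 fold change 2.22, edgeR adjusted p = 0.001). The sum of the 14 ranged from 361 to 604 CPM in WT and from 1911 to 2824 CPM in the Drp1 KO group, and that of the 10 was 434 to 474 CPM and 563 to 781 CPM. The 14 genes were likewise chosen with earlier results of these data known, and the difference between the lists was not tested.

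**Figure D5:**
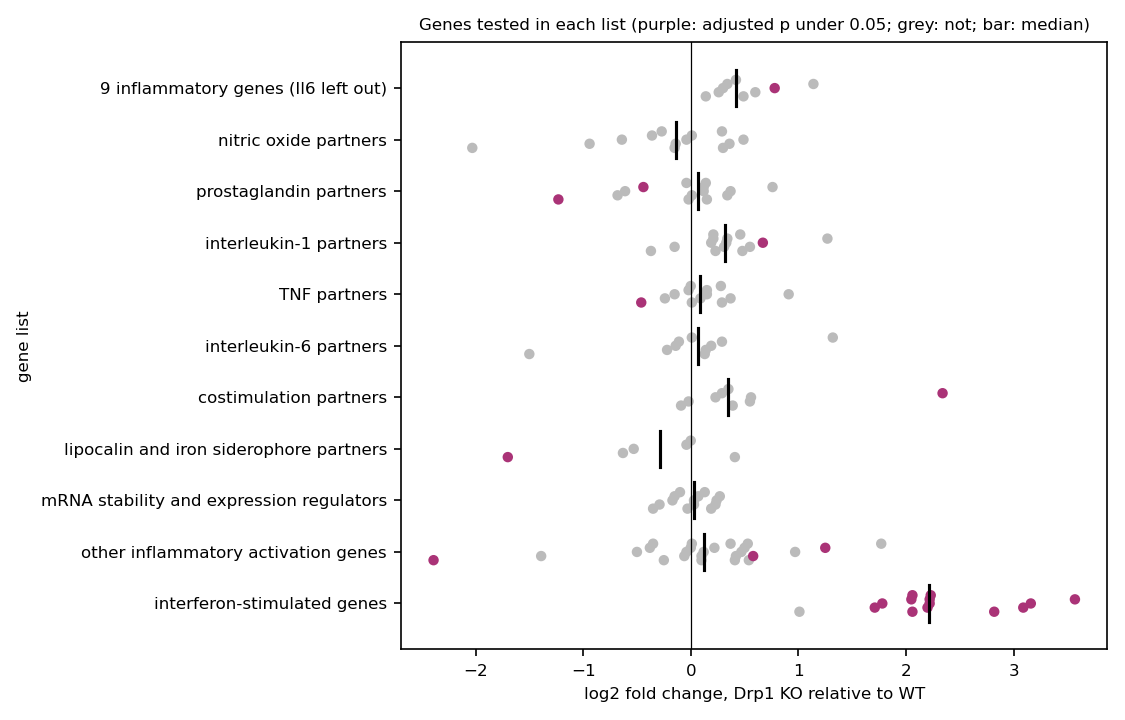
Fitted log2 fold change (horizontal axis, Drp1 KO relative to WT) of each gene tested in the inflammatory genes (9 shown, Il6 left out), in the lists of their pathway partners and in 14 interferon-stimulated genes, purple where the adjusted p was under 0.05, with the median of each list as a bar. The interferon-stimulated genes lie to the right with a median of 2.21, and the lists of partners have medians from -0.29 to 0.35.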

How the data were processed

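Per the labels and the methods, poly(A) RNA of 3 WT and 3 Drp1 KO BMDM libraries was sequenced with paired-end reads and quantified with kallisto 0.46.1 on the Ensembl transcripts of GRCm39. The authors deposited, for each of 116873 transcripts, an estimated count (expected counts, unscaled) and a TPM value. The methods give slightly different oxygen and L929 medium values from the labels, whose values are used here, and another RNA extraction kit.

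Transcripts were matched by identifier to GENCODE (99.4%, on 36137 genes; 0.542% to 0.575% of counts were left out), summed per gene and rounded. Genes with at least 10 counts in total (18506) were tested with edgeR 4.0.16 in R 4.3.3 (TMM, quasi-likelihood test, no covariate, Benjamini-Hochberg over all genes tested), after the test had been tried on simulated data. The study used DESeq2 (1.44.0 per the labels, while the methods name another version). CPM values use TMM-scaled library sizes, and the floor is 3 counts. Intervals are 95% intervals of the fit. Standard errors come from the fitted test. Ratios of members used TPM and exact two-sided permutation tests.

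The 10 genes, the partner and marker lists, and the tests were chosen with earlier results of these data known. Named were all members, from each list the genes that passed (of the interferon-stimulated genes by their count) and the gene with the highest mean CPM, up to 3 genes most alike each member with a mean of at least 5 CPM, and transcripts with at least 10% of a member's counts. S100a8, S100a9, Ltf, Ngp and Ly6g were named after their values were seen. Pairing was taken from the labels' numbers after deviations of same-numbered libraries correlated at 0.515, 0.206 and 0.307 (other pairs -0.449 to 0.328). The highest value of the other pairs thus exceeded those of same-numbered pairs 2 and 3. Libraries of a group differed by a chi-square per degree of freedom of at least 10.4, so none was a copy. The starts and exons of GENCODE and the genome sequence of GRCm39 gave the sequences. The other markers tested, with 0 passing, were 6 for dendritic cells (median log2 fold change -0.48), 4 for B cells (0.48), 4 for T and NK cells (-0.06), 5 for fibroblasts (-0.14) and 1 for mast cells and basophils (0.14), and 2, 1, 0, 0 and 0 of them had an unadjusted p under 0.05 in edgeR. DESeq2 and limma-voom called 0 of them. Itgax, Ighm, Cd3d, Col1a1 and Cpa3 had the highest mean CPM of these lists.

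Alternatives were DESeq2 1.42.0, limma-voom 3.58.1, median-of-ratios and library-size scaling, other filters on low counts, length-scaled counts, protein-coding transcripts alone, the replicate block and each library left out.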

Additional observations from a re-analysis of the deposited data

How the results depend on the processing

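Of the 10 genes, the number with an adjusted p under 0.05 was 1 as reported, 3 with DESeq2 (Il1rn, Nfkbiz, Lcn2), 3 with no filter beyond 1 count (the same genes), 4 with the replicate block and 0 with length-scaled counts, and the cause was not tested. Of all genes 3.36%, 8.8%, 4.43%, 12% and 2.44% were called in these fits. With each library left out in turn it was 0 to 1: 0 when WT library 2, or 3, or Drp1 KO library 3 was dropped, while the 1 gene was Nfkbiz without WT library 1, Lcn2 without Drp1 KO library 1 and Il1rn without Drp1 KO library 2. These fits have fewer samples and called 1% to 4.96% of all genes. The number by the study's criteria (4), the number without overlap (4) and the median (0.46) stayed within 1.5 times or the spread under each alternative run. With each library left out the log2 fold change of Nos2 ran from -0.20 (without Drp1 KO library 1) to 0.52. The Il1rn to Il1b log2 ratio difference of 0.24 ran from -0.12 (without Drp1 KO library 1) to 0.58, was -0.07 without WT library 2, and was 0.44 in CPM and 0.40 from protein-coding transcripts. The Cd86 to Cd80 difference of -0.35 ran from -0.50 (without WT library 2) to -0.07 (without WT library 1) and was -0.18 in CPM. The difference in the Il1rn share on the upstream start was 2.88 percentage points in TPM in place of 6.55, and 5.78 to 7.25 with each library left out (alternatives chosen after seeing the data). The pairing changed no other call of a member. Low counts limit Il6 and Il1b, and the 3 libraries per group limit all ratios.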
